A study of Mus musculus with 6 samples.

Results

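The glucocorticoid receptor, its mineralocorticoid relative, the enzymes that supply or remove their ligand and 6 of the receptors' best-known target genes were followed on arrays of fetal and adult mammary cells. The genes are Nr3c1, Nr3c2, Hsd11b1, Hsd11b2, Fkbp5, Sgk1, Tsc22d3, Zbtb16, Klf9 and Mt2, taken by name, and the accession of each array probe was matched to them. These 10 genes had 11 probes, of 55681 probes on the array and 20656 genes that a probe matched. Nr3c1 had 2 probes and the others 1 each.

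RNA came from female C57Bl6J mice, from mammary cells freshly sorted by flow cytometry, with 3 biological replicates per population and 1 one-color Agilent SurePrint G3 Mouse GE array per replicate. The fetal cells, of embryonic day 18.5, carried the phenotype CD31-CD45-Ter119-EpCAM++CD49f+. The adult basal cells, of mice aged 8 to 12 weeks, were CD31-CD45-Ter119-BP-1- and EpCAM+CD49f+. CD31, CD45, Ter119 and, for adult cells only, BP-1 remove endothelial, white blood, red blood and stromal cells. Adult glands were digested overnight and fetal glands only briefly, so age, gate and length of digestion cannot be told apart. Neither population was treated with a hormone, and the number of animals behind each replicate is not given in the sources used here.

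Glucocorticoids are steroid hormones that cross the cell membrane and bind the glucocorticoid receptor, which waits in the cytoplasm in a complex with Hsp90 and its cochaperones and then moves to the nucleus to switch target genes on or off. Cells also set their own exposure, because Hsd11b1 regenerates active hormone from its inert ketone form and Hsd11b2 destroys it, which leaves the mineralocorticoid receptor free for aldosterone. In the mammary gland glucocorticoids act with prolactin and Stat5 on milk protein genes, and the hormone is a usual supplement of mammary cell cultures.

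The 10 genes did not differ in a single direction. Sgk1 and Fkbp5 stood higher in fetal cells, on average 2.87-fold and 2.05-fold, while Mt2, Nr3c1 itself, Klf9, Zbtb16 and Hsd11b1 stood higher in adult basal cells, by 1.96-fold, 1.91-fold, 1.85-fold, 1.47-fold and 1.38-fold. Tsc22d3 and Nr3c2 had overlapping values in the 2 populations, and Hsd11b2 did not pass the filter on low signal and has no test. All values are quantile-normalized log2 signals, differences are fetal minus adult basal, and adjusted p-values are from limma fitted over all 20442 probes that had a gene and passed a filter on low signal.

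The study's methods required both a log2 difference of 1 or more in size and an adjusted p, by Holm, no higher than 0.05. By that rule limma called 0 of the 9 tested genes, against 11.1% of all tested probes. With Benjamini-Hochberg adjustment at the same fold limit, 2 of the 9 were called, Fkbp5 and Sgk1, against 30% of all probes. Without the fold limit 7 of the 9 passed, against 61.1%, with 2 higher in fetal cells (background 30.8%) and 5 higher in basal cells (background 30.4%), and 7 had an unadjusted p under 0.05, against 64.7%. The values of the populations did not overlap for 7 of the 9, against 69% of all probes. Fetal cells lay above for 2 (background 34.1%) and below for 5 (background 35%). With the fold limit the share of the 9 genes was under that of all probes, without it somewhat above, and with 9 genes nothing is read from either about the genes as a group. The median log2 difference of the 9 tested genes was -0.47, against -0.03 over all tested probes, and their median absolute difference was 0.89 against 0.55. With Hsd11b2, the medians of the 10 genes were -0.43 and 0.72. Each of the 11 probes was well above background on all 6 arrays. The smallest p that an exact permutation test of 1 gene can give in this design is 0.1, so the tests here are the limma fit across all probes.

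**Figure D1:**
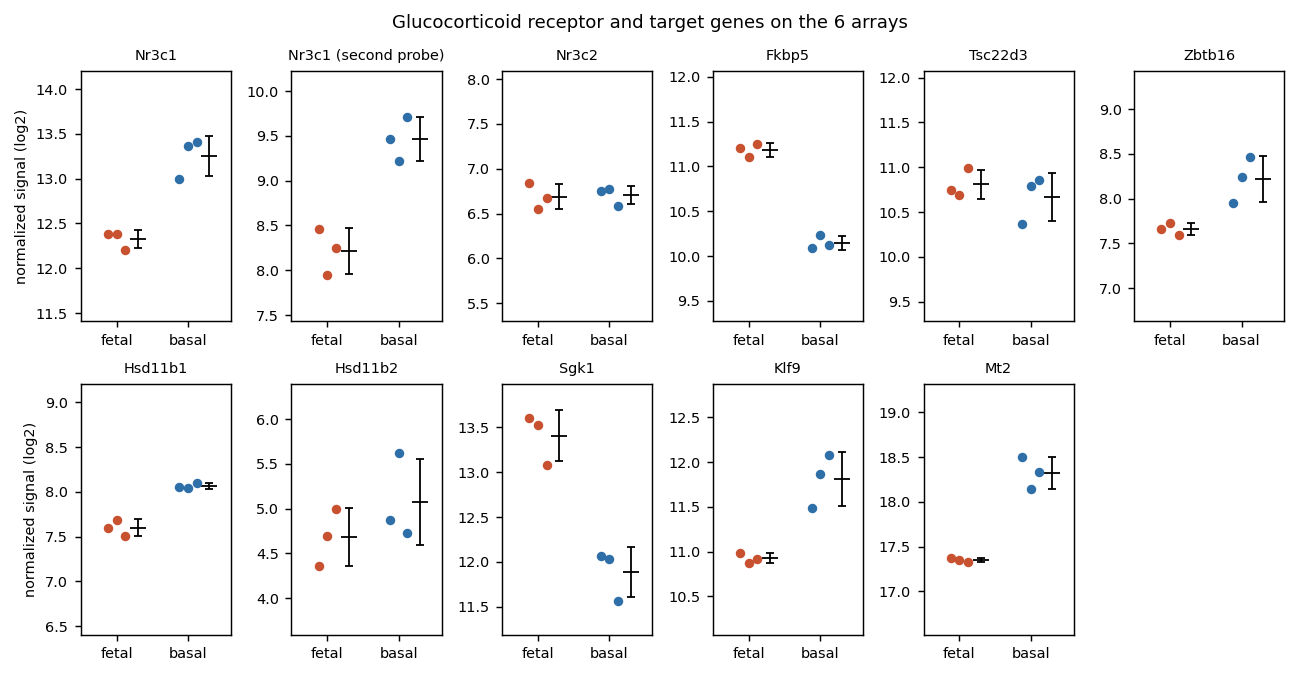
Normalized signal (log2) of the 11 probes on each array, with 3 points for the E18.5 fetal arrays, 3 for the adult basal arrays and the mean ± SD beside them. Every panel spans the same number of log2 units but starts at its own level, since signals of different probes cannot be compared. Sgk1 and Fkbp5 lie higher in fetal cells, Nr3c1, Mt2, Klf9, Zbtb16 and Hsd11b1 lie higher in basal cells, and Nr3c2, Tsc22d3 and Hsd11b2 overlap.

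Of the receptors, Nr3c1, the glucocorticoid receptor, read 12.38, 12.39 and 12.21 in fetal cells and 13.00, 13.37 and 13.41 in basal cells with probe A_55_P1967885. The lowest basal array lay 0.61 above the highest fetal array. The difference of -0.93 (SE 0.14, n = 3 and 3) had a limma adjusted p of 0.00077 by Benjamini-Hochberg and 1 by Holm, and was just under the fold limit. Its second probe, A_52_P254174, read 8.46, 7.95 and 8.24 in fetal cells and 9.46, 9.22 and 9.71 in basal cells. This probe too separated the populations, with a difference of -1.24 (SE 0.18) and a limma Benjamini-Hochberg p of 0.0006, so the Benjamini-Hochberg rule called it higher in basal cells. The direction was therefore the same with both probes, and only the second crossed the fold limit. On each slide alone the differences were -0.82 and -1.07 with the first probe and -1.12 and -1.12 with the second.

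Nr3c2, the mineralocorticoid receptor, which binds glucocorticoids as well as aldosterone, read 6.84, 6.55 and 6.67 in fetal cells and 6.75, 6.78 and 6.59 in basal cells. The arrays of the populations were interleaved. The difference was -0.02 with a 95% interval of -0.29 to 0.26 (limma Benjamini-Hochberg adjusted p = 0.9), which leaves out a change as large as the fold limit in either direction.

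Of the ligand-handling enzymes, Hsd11b1 read 7.60, 7.69 and 7.51 in fetal cells and 8.05, 8.05 and 8.10 in basal cells. The basal arrays lay within 0.06 of each other and above every fetal array, so a small difference, -0.47 (SE 0.10), was measured closely (limma Benjamini-Hochberg adjusted p = 0.0045, Holm adjusted p = 1). Hsd11b2, the opposing enzyme, read 4.36, 4.69 and 5.0 in fetal cells and 4.88, 5.63 and 4.72 in basal cells. Its values overlapped and did not pass the low-signal filter, so it has no test. H6pd, which supplies the cofactor that Hsd11b1 needs, had a log2 difference of 0.79 (SE 0.13, limma Benjamini-Hochberg adjusted p = 0.0015), opposite in sign to that of Hsd11b1 and within the fold limit.

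Hsd11b1 is also a gene of stromal and fat cells, and most markers of fibroblasts were also higher in basal cells. Of 7 fibroblast markers, all well above background in both populations, the Holm rule called 2 higher in basal cells, Dcn and Pdgfrb, and 0 higher in fetal cells, against 5.18% and 5.92% of all tested probes. Benjamini-Hochberg called 3 higher in basal cells, these and Lum, against 14%, and 6 had an unadjusted p under 0.05, against 64.7%. Pdgfrb passed the low-signal filter only through its basal values, so its entry into the test already depended on a high basal signal. Every basal array lay above every fetal array for 6 of the 7, against 35% of all tested probes, and Col1a1 overlapped. The summed linear signal of the 7 markers was 5460, 5740 and 7056 units in fetal cells and 16064, 18540 and 26641 in basal cells. The brightest probe by its mean over all arrays was that of Dcn, though Col1a2 was brighter on the fetal arrays. Of 5 adipocyte markers limma called 0 by either adjustment and 2 had an unadjusted p under 0.05, against 64.7% of all tested probes. Their sums were 1126, 947 and 2964 units in fetal cells and 2047, 1904 and 2373 in basal cells, with Fabp4 the brightest by its mean over all arrays, and Adipoq was not well above background on any basal array. Both sorts kept EpCAM-positive cells, and the paper places the stromal cells of the fetal gland in the EpCAM-negative fraction. The part of fibroblasts or fat cells in the Hsd11b1 difference was not tested. In bulk RNA, fewer cells of a type and less RNA per cell cannot be told apart.

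The other genes that handle the hormone included larger differences. Of 4 tested, the Holm rule called 0 higher in fetal and 1 higher in basal cells, against 5.92% and 5.18% of all tested probes, and Benjamini-Hochberg called 1 and 1, against 16% and 14%. Srd5a1, a reductase that inactivates steroids including glucocorticoids, read 12.06, 12.12 and 12.17 in fetal cells and 9.07, 7.39 and 8.18 in basal cells. The basal arrays spread over more than 1 log2 unit but stayed below all fetal arrays, and the difference was 3.90 (SE 0.37), called by Benjamini-Hochberg (limma adjusted p = 7.8e-05) and not by Holm (adjusted p = 0.223). In some alternative settings Holm called Srd5a1 too (limma Holm adjusted p down to 0.0264). Abcb1b, an export pump that carries glucocorticoids among other substrates, did not clear background on any fetal array and was at least 11.7-fold higher in basal cells (limma Holm adjusted p = 0.0028). Abcb1b passed the low-signal filter only through its basal values, so its entry into the test already depended on a high basal signal. Its call was lost without fetal replicate 2 (Holm p of 0.0534). That bound sets the basal mean against the lowest signal that counted as well above background on each fetal array, and the same construction is used for all bounds given here. Its close relative Abcb1a had a log2 difference of 0.35 (SE 0.13).

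Fkbp5, a cochaperone of Hsp90 that lowers the receptor's affinity for hormone and is itself induced by the receptor, read 11.21, 11.10 and 11.25 in fetal cells and 10.09, 10.24 and 10.12 in basal cells. Each population spanned only 0.15 log2 units, and 0.86 lay between them. The difference was 1.04 (SE 0.10), measured more closely than that of Sgk1, with a limma adjusted p of 8.4e-05 by Benjamini-Hochberg and 0.243 by Holm. It ranked 3498th by p among the 20442 probes. Fkbp4, its paralog, which has the opposite effect on the receptor, read 11.57, 11.65 and 11.73 in fetal cells and 11.24, 10.65 and 11.08 in basal cells, a difference of 0.65 (SE 0.16, limma Benjamini-Hochberg adjusted p = 0.0096). Both immunophilins thus had higher values on every fetal array than on any basal array.

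The rest of the receptor's chaperone machinery had few calls and mostly small positive differences. Of 14 tested genes besides Fkbp5, limma called 0 by Holm and 1 by Benjamini-Hochberg, and 11 had an unadjusted p under 0.05, against 11.1%, 30% and 64.7% of all tested probes. Fetal arrays lay above all basal arrays for 11 of the 14 and below for 0, against 34.1% and 35% of all tested probes, and the median log2 difference was 0.43 against -0.03 over all probes. The 1 called gene was Ppp5c, a phosphatase of the receptor complex, at 1.19 (SE 0.13, limma Benjamini-Hochberg adjusted p = 0.00014, Holm adjusted p = 0.465). Hsp90aa1 and Hsp90ab1, the chaperones that hold the receptor ready for hormone, had differences of 0.88 (SE 0.12) and 0.45 (SE 0.10).

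Heat shock genes are among the genes that respond to cell handling, and most genes of a list of immediate early and heat shock genes also had higher values in fetal cells. Of its 9 tested genes, the Holm rule called 1, Fosb, and the Benjamini-Hochberg rule 6, all higher in fetal cells, against 5.92% and 16% of all tested probes. Ier3 lay lower on every fetal array than on any basal array, with a difference of -1.0 that was not called, and the values of Hspa1a overlapped. The summed linear signal was 209776, 253007 and 235529 units in fetal cells and 90329, 92194 and 110709 in basal cells, with Jun the brightest. No gene of the list was below background. The part of handling in the values of the chaperones, of Fkbp5 or of Sgk1 was not tested.

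Of the receptor's target genes, Sgk1, a kinase that raises sodium uptake in epithelia and answers to both corticosteroid receptors, to serum and to cell stress, had the largest difference of the 10 genes. It read 13.61, 13.53 and 13.08 in fetal cells and 12.06, 12.03 and 11.56 in basal cells. In each population replicate 3 was the lowest, and a gap of 1.02 separated the lowest fetal array from the highest basal array. The difference was 1.52 (SE 0.19), or 2.87-fold, with a limma adjusted p of 0.00035 by Benjamini-Hochberg and 1 by Holm. In size it was passed by 18.1% of all tested probes. On each slide alone it was 1.80 and 1.28.

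The start region of Sgk1 is shown because it holds a full match to the glucocorticoid response element, searched on both strands as AGAACA, any 3 bases and TGTTCT. RefSeq lists 6 starts of Sgk1 in GRCm38.p6, and the match is in the 250 bases before 1 of them, chr10:21993640-21993889 on the + strand, at 189 to 175 bases upstream. The capitals mark the match, which reads as an element on either strand.

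Sgk1: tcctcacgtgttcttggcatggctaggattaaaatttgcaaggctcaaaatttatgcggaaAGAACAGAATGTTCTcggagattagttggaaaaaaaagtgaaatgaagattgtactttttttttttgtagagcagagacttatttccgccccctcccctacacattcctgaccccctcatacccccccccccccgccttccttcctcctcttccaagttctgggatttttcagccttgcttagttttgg

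The full element was present in 3 of 32851 promoter windows of that length (0.00913%), while its arm AGAACA, which a full element holds on both strands, was present in 16.1%. Arms outside the full match were found in this window, before 2 other Sgk1 starts and before 1 start of Tsc22d3. The table holds 7 of the 10 genes, without Hsd11b2, Nr3c1 and Zbtb16. A match is a description of the letters, and no binding was measured in these cells.

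**Figure D2:**
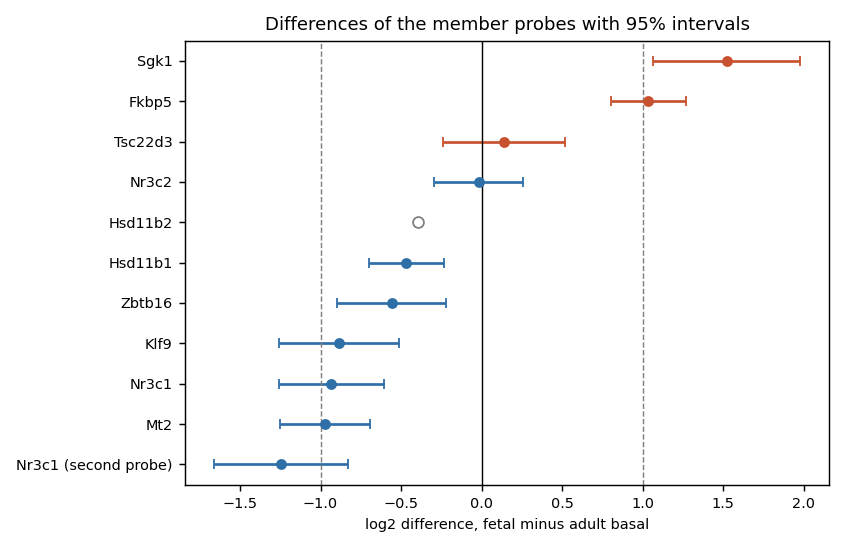
Log2 difference, fetal minus adult basal, for each probe, with its 95% interval from limma (3 arrays per population). Dashed lines mark the fold limit of 1, and the open point is Hsd11b2, which was not tested. Only the interval of Sgk1 lies wholly beyond a dashed line, from 1.07 to 1.98, and those of Nr3c2 and Tsc22d3 span 0.

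Tsc22d3, known as Gilz, a leucine zipper protein that carries much of the hormone's anti-inflammatory action, read 10.74, 10.69 and 10.996 in fetal cells and 10.36, 10.79 and 10.86 in basal cells. Basal replicate 1 lay below the rest, and the other basal arrays lay among the fetal ones. The difference of 0.14 had a 95% interval of -0.24 to 0.52 (limma Benjamini-Hochberg adjusted p = 0.49), and without basal replicate 1 it was -0.01. Its paralogs had negative differences. Tsc22d2 read 7.31, 7.5 and 7.04 in fetal cells and 7.92, 8.77 and 8.22 in basal cells, a difference of -1.02 (SE 0.23) called by Benjamini-Hochberg (limma adjusted p = 0.0063). Tsc22d4 and Tsc22d1 had differences of -0.82 (SE 0.09) and -0.34 (SE 0.13) by their main probes, neither called, and a dimmer probe of Tsc22d4 had -1.50 (SE 0.23), called higher in basal cells by Benjamini-Hochberg.

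Zbtb16, a zinc finger repressor also called Plzf and a sensitive target of the receptor, read 7.66, 7.73 and 7.60 in fetal cells and 7.95, 8.24 and 8.46 in basal cells. Fetal arrays were tight and the basal arrays spread, but the lowest basal value stayed 0.22 above the highest fetal value. The difference was -0.56 (SE 0.14, limma Benjamini-Hochberg adjusted p = 0.012), within the fold limit.

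Klf9, a Krüppel-like repressor induced by glucocorticoids and by thyroid hormone, read 10.98, 10.87 and 10.92 in fetal cells and 11.48, 11.87 and 12.07 in basal cells. All basal arrays lay above all fetal arrays, and the difference was -0.89 (SE 0.16, limma Benjamini-Hochberg adjusted p = 0.0021). Its nearest paralog Klf13 read 10.73, 10.46 and 10.44 against 11.66, 11.49 and 11.75, a difference of -1.09 (SE 0.13) called by Benjamini-Hochberg (limma adjusted p = 0.00021). Klf16 had a difference of -0.55 (SE 0.15), and Klf14 did not pass the low-signal filter.

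Mt2, a metallothionein that binds zinc and copper and is induced by metals as well as by glucocorticoids, read 17.37, 17.35 and 17.33 in fetal cells and 18.50, 18.14 and 18.33 in basal cells. The fetal arrays lay within 0.04 log2 units of each other, and no spot of the array was saturated. The difference was -0.97 (SE 0.12, limma Benjamini-Hochberg adjusted p = 0.00028, Holm adjusted p = 1), just under the fold limit. Its neighbor and closest paralog Mt1 read 18.10, 17.77 and 18.07 in fetal cells and 18.39, 17.96 and 18.30 in basal cells. These overlapped, with a difference of -0.24 (SE 0.15, limma Benjamini-Hochberg adjusted p = 0.22). Mt3 and Mt4 had differences of -0.14 (SE 0.13) and -0.03 (SE 0.11). The contrast between Mt2 and Mt1 was not tested.

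The 250 bases before the start of Mt2, chr8:94172368-94172617 on the + strand of GRCm38.p6 (RefSeq), are shown because Mt2 answers to metals through a second kind of element. Its core was searched as TGCACNC and TGCGCNC on both strands, and the capitals mark the matches, of which the last lies on the opposite strand.

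Mt2: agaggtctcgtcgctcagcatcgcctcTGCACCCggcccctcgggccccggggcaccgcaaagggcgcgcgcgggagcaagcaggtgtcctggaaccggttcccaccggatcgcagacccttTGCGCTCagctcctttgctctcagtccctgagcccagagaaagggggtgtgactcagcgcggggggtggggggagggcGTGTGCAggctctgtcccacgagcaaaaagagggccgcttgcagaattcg

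The window held 3 cores, at 223, 128 and 50 bases upstream (first base of each), and no glucocorticoid element or arm of one. At least 3 cores were present in 1.26% of all windows, while TGCACNC was present in 10.4% and TGCGCNC in 12.5%. The same window of Mt1 held 1 core. Of the 6 tested metal-responsive genes besides Mt2, the Holm rule called 0 higher in fetal cells and 1 higher in basal cells, against 5.92% and 5.18% of all tested probes. This was Mtf1, the transcription factor that binds the core, which read 8.24, 8.34 and 8.16 against 10.26, 10.12 and 10.26, a difference of -1.97 (SE 0.10, limma Holm adjusted p = 0.0040). The Mtf1 call was lost when any 1 fetal array was left out (Holm p up to 0.0924), and a second tested probe of Mtf1 had a difference of -0.48 (SE 0.16).

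The spread among arrays was larger in basal cells for some of the genes and not for others. The SD of Klf9 was 0.30 in basal and 0.06 in fetal cells, that of Zbtb16 0.26 and 0.07, that of Mt2 0.18 and 0.02 and that of Nr3c1 0.22 and 0.10 (first probe). Hsd11b1, at 0.03 in basal and 0.09 in fetal cells, and Nr3c2, at 0.10 and 0.14, were the more even in basal cells. Sgk1, Fkbp5 and the second probe of Nr3c1 had nearly equal SDs, of 0.28 and 0.29, 0.08 and 0.08, and 0.24 and 0.26. Over all tested probes the median SD was 0.18 in basal and 0.12 in fetal cells. Basal replicate 1 had the lowest basal value for Nr3c1 (first probe), Klf9, Zbtb16, Tsc22d3 and Fkbp5 and the highest for Mt2 and Sgk1. Without it, the differences were -1.06 for Nr3c1, -1.05 for Klf9, -0.69 for Zbtb16, -0.88 for Mt2 and 1.61 for Sgk1.

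**Figure D3:**
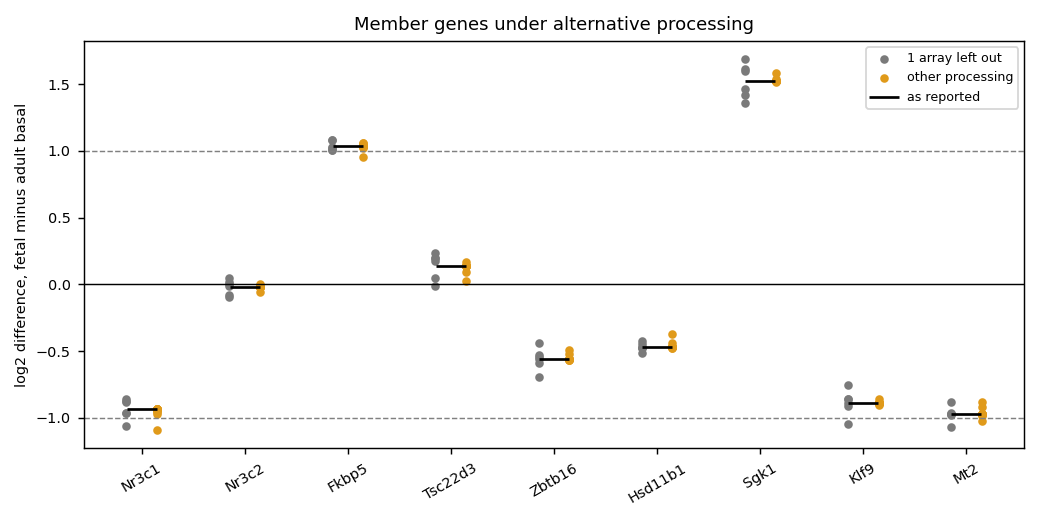
Log2 difference, fetal minus adult basal, of the 9 tested genes (first probe of Nr3c1) as reported (bar), with 1 array left out (grey) and under other processing (orange). Dashed lines mark the fold limit. Only Nr3c2 and Tsc22d3 cross 0, and Nr3c1, Fkbp5, Klf9 and Mt2 lie close enough to the fold limit to cross it in some settings.

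Other genes that glucocorticoids induce in many tissues split between the populations and held far larger differences than the 10 genes. Of 28 tested, the Holm rule called 3 higher in fetal cells (background 5.92%) and 4 higher in basal cells (background 5.18%), and Benjamini-Hochberg called 5 (background 16%) and 10 (background 14%). Their median log2 difference was -0.28.

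Cdkn1c, the cyclin-dependent kinase inhibitor p57, read 14.24, 14.33 and 14.36 in fetal cells and 8.46, 8.03 and 8.43 in basal cells. The populations lay far apart and each was tight, and the gene was higher in fetal cells by 6.0 (SE 0.14, limma Holm adjusted p = 1.2e-05). Nfkbia, the inhibitor of NF-kappaB, was 2.10 higher in fetal cells (SE 0.15, limma Holm adjusted p = 0.027), and Glul, glutamine synthetase, was 1.73 higher (SE 0.13, limma Holm adjusted p = 0.036).

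Pdk4, the kinase that shuts off pyruvate dehydrogenase in fasting, read 7.66, 7.86 and 7.74 in fetal cells and 13.25, 14.54 and 14.46 in basal cells. Basal replicate 1 was the lowest of its population and was still far above the fetal arrays, and the difference was -6.33 (SE 0.33, limma Holm adjusted p = 0.0035). Angptl4, a secreted inhibitor of lipoprotein lipase, read 10.66, 10.50 and 10.09 against 16.48, 16.14 and 16.51, a difference of -5.96 (SE 0.18, limma Holm adjusted p = 8.1e-05). Bcl6, a transcriptional repressor, had a difference of -3.20 (SE 0.20, limma Holm adjusted p = 0.015), and Cdkn1a, p21, one of -2.13 (SE 0.14, limma Holm adjusted p = 0.019). Cdkn1c and Angptl4 kept their calls with any 1 array left out, whereas Pdk4 lost its call without any 1 fetal array (Holm p up to 0.0782). Nfkbia lost it in 5 of the 6 such fits (all but the one without basal replicate 2), Glul in all 6, Bcl6 in 5 (all but the one without basal replicate 1) and Cdkn1a in all 6, with Holm p up to 0.323, 0.463, 0.185 and 0.261. With slide as a block, Nfkbia, Glul and Bcl6 kept their direction but lost the call, at a Holm p of 0.129, 0.177 and 0.0907.

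**Figure D4:**
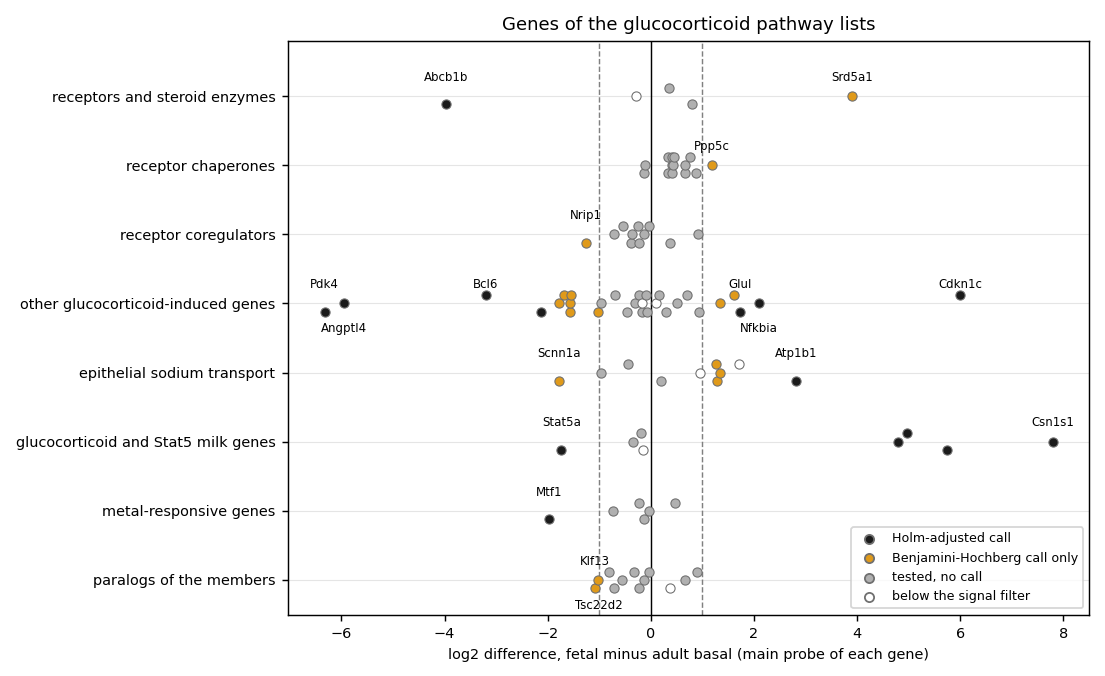
Log2 difference, fetal minus adult basal, of each gene (main probe) in 8 lists of glucocorticoid pathway genes besides the 10 described, colored by the call. Dashed lines mark the fold limit, and the largest calls of each list are named. Chaperones gather to the right of 0, and the induced genes spread to both sides, from -6.33 for Pdk4 to 6.0 for Cdkn1c.

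The coregulators that the receptor recruits to its targets had few calls. Of 11 tested, limma called 0 by Holm and 1 by Benjamini-Hochberg, and 7 had an unadjusted p under 0.05, against 11.1%, 30% and 64.7% of all tested probes. Fetal arrays lay above all basal arrays for 2 and below for 7, against 34.1% and 35%, and the median difference was -0.25. Another probe of Ncoa1, a coactivator, was called higher in basal cells by Benjamini-Hochberg at -1.11 (SE 0.13), while its main probe had -0.72 (SE 0.16). The 1 was Nrip1, a corepressor of nuclear receptors, which read 12.28, 11.90 and 11.74 in fetal cells and 13.11, 13.37 and 13.22 in basal cells, a difference of -1.26 (SE 0.16, limma Benjamini-Hochberg adjusted p = 0.00035).

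Sodium transport genes, on whose products Sgk1 acts, had calls in both directions. Of 8 tested, the Holm rule called 1 higher in fetal cells and 0 in basal cells, against 5.92% and 5.18% of all tested probes, and Benjamini-Hochberg called 4 and 1, against 16% and 14%. Of those 4, 1 passed the low-signal filter only through its fetal values. Atp1b1, the beta subunit of the sodium pump, read 11.43, 11.53 and 11.07 in fetal cells and 8.94, 8.36 and 8.26 in basal cells, a difference of 2.82 (SE 0.21, limma Holm adjusted p = 0.044) whose call was lost in 5 of the 6 fits with 1 array left out, all but the one without basal replicate 1 (Holm p up to 0.632), and with slide as a block (Holm p of 0.148). Scnn1a, the alpha subunit of the epithelial sodium channel, read 7.16, 7.18 and 6.91 against 8.89, 8.59 and 9.09, a difference of -1.77 (SE 0.15) called by Benjamini-Hochberg (limma adjusted p = 4.9e-05) and not by Holm (adjusted p = 0.121). In some alternative settings Holm called Scnn1a too (limma Holm adjusted p down to 0.0233). The Sgk1 paralogs had differences of 0.89 (SE 0.13) for Sgk3 by its main probe and -0.73 (SE 0.27) for Sgk2, neither called. The values of Sgk2 overlapped, as did those of a dimmer probe of Sgk3, which had -0.07 (SE 0.11). Over all 11 tested paralogs of the 10 genes, limma called 0 by Holm and 2 by Benjamini-Hochberg, Klf13 and Tsc22d2, and 8 had an unadjusted p under 0.05, against 11.1%, 30% and 64.7% of all tested probes.

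The list of milk protein genes, which need glucocorticoid, prolactin and Stat5 together, and of their regulators Prlr, Stat5a and Stat5b included the largest difference of the 8 lists. Of 7 tested, the Holm rule called all 4 caseins higher in fetal cells and 1 higher in basal cells, Stat5a, against 5.92% and 5.18% of all tested probes. The 4 caseins passed the low-signal filter only through their fetal values, so their entry into the test already depended on a high fetal signal. Csn1s1 read 12.46, 12.61 and 12.54 in fetal cells and 5.02, 4.65 and 4.54 in basal cells, a difference of 7.80 (SE 0.14, limma Holm adjusted p = 2.5e-06). Csn2, Csn3 and Csn1s2a were not well above background on any basal array and were at least 13.7-fold, 7.87-fold and 7.40-fold higher in fetal cells (limma Holm adjusted p = 0.0002, 0.0071 and 0.00023). Without 1 array the Holm p of Csn3 reached 0.097 and 4 of the 6 fits lost it, all but those without basal replicate 2 or fetal replicate 2. With no low-signal filter its call was lost too (limma Holm adjusted p = 0.0772). Stat5a, a factor that drives these genes, read 9.33, 9.55 and 9.38 against 11.31, 10.95 and 11.21, a difference of -1.73 (SE 0.13, limma Holm adjusted p = 0.047) lost in 5 of the 6 such fits, all but the one without basal replicate 2 (Holm p up to 0.645), and with slide as a block (Holm p of 0.255). Wap did not pass the low-signal filter, and the 2 probes of Prlr, the prolactin receptor, had differences of -0.35 (SE 0.11), not called, and 1.85 (SE 0.13), called higher in fetal cells (limma Holm adjusted p = 0.026).

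The labelled populations were checked against their markers. Of 6 basal markers, Krt5, Acta2, Myh11 and Cnn1 were called higher in adult basal cells by the Holm rule (background 5.18%), Krt14 overlapped, and the 2 probes of Trp63 had differences of -0.08 and -3.06. Myh11 passed the low-signal filter only through its basal values, so its entry into the test already depended on a high basal signal. The summed linear signal of the list was 63639, 55248 and 50230 units in fetal cells and 790764, 726246 and 712728 in basal cells, with Acta2 the brightest. Of 5 tested luminal markers, Elf5 and Pgr were called higher in fetal cells by the Holm rule (background 5.92%), and Krt19 was called higher in basal cells by Benjamini-Hochberg (background 14%) at -1.22. Krt8 and Krt18 were called by neither, with differences of 0.44 (SE 0.13) and 0.58 (SE 0.13), and every fetal array lay above every basal array for both. Elf5 passed the low-signal filter only through its fetal values. The main probe of Esr1 did not pass the low-signal filter. Its 1 tested probe passed only through its basal values and was called higher in basal cells by Benjamini-Hochberg. That probe was well above background on only 1 of the 3 fetal arrays, so no size is given. Of 4 tested endothelial and 5 tested leukocyte markers, limma called 0 by Holm, 2 and 1 by Benjamini-Hochberg, all higher in basal cells (background 14%), and 2 and 2 had an unadjusted p under 0.05 (background 64.7%). All the endothelial and leukocyte markers so called passed the low-signal filter only through their basal values. Of 3 tested epidermal markers, the Holm rule called 1 higher in fetal cells, Krt10 (background 5.92%), Benjamini-Hochberg called 2, Krt1 and Krt10 (background 16%), and all 3 were higher on every fetal array than on any basal array (background 34.1%). Krt1 passed the low-signal filter only through its fetal values. The summed linear signal of the epidermal list was 2.48 times higher in fetal cells, and no red cell marker passed the low-signal filter.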

How the data were processed

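The 6 samples, 3 from each population, were measured on 1 array each. The authors extracted spot intensities with Feature Extraction 11.0.1.1. The deposited processed signal is a linear intensity corrected for background within the array and not normalized between arrays. The authors also deposited a table of log2 values, quantile normalized in GeneSpring, which served as an alternative. Each of its columns followed its own array with r from 0.971 to 0.995. The labels and the methods name different labelling kits. Arrays lay on 2 slides, slide 1 with 1 fetal and 2 basal arrays and slide 2 with 2 and 1, and each slide was 1 scan.

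Control spots and outlier spots (104 to 326 on an array) were left out, spots of a probe were averaged, and log2 processed signals were quantile normalized. Background was clearly exceeded by 76.4% to 83.3% of the probes of an array. Arrays give no counts, so their number limits the precision. Accessions were matched to RefSeq genes of GRCm38.p6, which named 27229 of 55681 probes (48.9%). Probes in the lowest of 3 k-means clusters in both populations (log2 signal under 5.95) were removed, leaving 20442. Differences were fitted with limma 3.58.1 in R 4.3.3 and adjusted over all 20442 probes. A gene's main probe has the highest mean signal. In a simulation on these 20442 probes, 135 of 200 changed probes were recovered by Holm with 0 false calls, and 191 by Benjamini-Hochberg with 4. Every change planted there was larger in log2 size than the largest difference of the genes described, 1.52. The recovered shares therefore do not apply to those genes. Tables and plots were made with Python 3.11.15, pandas 2.3.3, numpy 2.4.6 and matplotlib 3.10.9.

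The 10 genes, the lists and the tests were chosen with earlier results of these data known. Named are the 10 genes, their paralogs, up to 3 genes per direction of each list with the largest Holm calls well above background on all arrays, or up to 2 Benjamini-Hochberg calls where there were none, marker genes where a list is described, and genes below background as bounds. H6pd, Abcb1a, Hsp90aa1, Hsp90ab1, Cdkn1a, Ncoa1, Prlr and Wap lie outside this rule and were named after their values were seen. Alternatives were 75th percentile normalization, the deposited values, normexp on the median signal (offset 50), an offset of 16 before log2, other filters, Benjamini-Hochberg adjustment, trended and robust variances, a replicate or slide block, the mean of a gene's probes and leaving out each array.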

Additional observations from a re-analysis of the deposited data

How the results depend on the processing

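The median log2 difference of the 10 genes, -0.43, ranged from -0.51 to -0.26 over all alternatives. The number of the 10 genes called was 0 except with Benjamini-Hochberg adjustment, which called 2. Fkbp5 stayed between 0.95 and 1.08 and Sgk1 between 1.36 and 1.69, and Nr3c1 (first probe), Zbtb16, Hsd11b1, Klf9 and Mt2 kept their sign in every alternative run. With 1 array left out, Nr3c2 ranged from -0.093 to 0.047 and was positive without basal replicate 1, basal replicate 2 or fetal replicate 2, and it was 0.00065 with slide as a block. Tsc22d3 ranged from -0.014 (without basal replicate 1, the one negative value) to 0.23. Mt4 ranged from -0.098 to 0.025, positive without basal replicate 1 or fetal replicate 2, and was 0.023 with slide as a block. Nr3c2 had no test with normexp or with the offset of 16.

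Of the 84 tested genes of the 8 lists, 15 (17.9%, against 11.1% of all tested probes) were called, against 8 with no low-signal filter, 32 (38.1%, against 30% of all tested probes) with Benjamini-Hochberg adjustment and 6 to 11 with 1 array left out. Among the 15 were the caseins and Abcb1b, which passed the low-signal filter only through the population where they were high. Over all probes 2269 were called, against 1182 with no low-signal filter, 6130 with Benjamini-Hochberg adjustment and 950 to 2014 with 1 array left out. The counts were 950, 968 and 1072 without fetal replicates 1, 2 and 3, and 1503 and 1335 without basal replicates 1 and 3. Leaving out an array also removes degrees of freedom. The replicate numbers did not pair the samples, since deviations of same-numbered arrays correlated at -0.03, 0.09 and 0.05, and only number 2 was best matched from both sides. With the replicate block, 1303 of all probes and 8 list genes were called, and 0 of the 10 genes.

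Hsd11b2 was well above background on every array but lay below the low-signal filter, so it has no test here. The arrays limit what can be said of genes below background, which have bounds. Neither the receptor's protein, its location nor hormone levels were measured.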
